A study of Mus musculus with 6 samples.

Results

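The ligands and receptors of the VEGF and angiopoietin systems were followed here in the aorta of mice lacking miRNA-26b. The 9 genes were taken by symbol from the gene-level count table: the ligands *Vegfa*, *Vegfb* and *Vegfc*, their receptors *Flt1*, *Kdr* and *Flt4*, the ligands *Angpt1* and *Angpt2*, and their receptor *Tek*. They are 9 of the 55341 genes listed, and all 9 were among the 16017 genes that passed the filter on low counts. RNA-seq was run on the aortic arch and thoracic aorta of 3 miRNA-26b-/- mice (KO1 to KO3) and 3 miRNA-26b+/+ mice (WT1 to WT3), aged 8 weeks and fed chow. The labels give the strain of all 6 as C57BL/6NCrl. The study describes a floxed allele made in R1/E ES cells of 129/Sv origin. Its results name male chimeras from 2 clones crossed with C57BL/6 females and a mixed background, whereas its methods place every mouse on a C57BL/6 background. The methods also give deletion through CreERT2 with tamoxifen and later removal of CreERT2 by breeding. The wild-type mice carried no deletion, and the sources used here name no Cre or tamoxifen for them.

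VEGF-A signals to endothelial cells mainly through KDR (VEGFR2), whereas FLT1 (VEGFR1) binds VEGF-A tightly and signals weakly, so that it also acts as a trap, and is the receptor of VEGF-B. VEGF-C acts through FLT4 (VEGFR3), best known for the growth of lymphatic vessels. ANGPT1 activates the receptor TEK (TIE2) and keeps the endothelium quiet, and ANGPT2 competes for the same receptor, often as its antagonist. TEK, KDR and FLT1 are largely endothelial, while the ligands are made by several cell types of the vessel wall.

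The animals lack both arms of the hairpin, so the mature sequences are shown with the seed, bases 2 to 8, in capitals. They were read from RefSeq annotation (GRCm38), where the hairpin of *Mir26b* lies on chromosome 1, with the 5p arm at chr1:74394324-74394344 and the 3p arm at chr1:74394360-74394381 on the plus strand. The miRNA-26a-5p of *Mir26a-1* and *Mir26a-2* carries the same seed as miRNA-26b-5p and its genes are left in place by the deletion.
mmu-miR-26b-5p: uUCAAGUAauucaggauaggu
mmu-miR-26a-5p: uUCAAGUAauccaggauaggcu
mmu-miR-26b-3p: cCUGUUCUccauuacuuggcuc

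The longest annotated 3′ UTR of each of the 9 genes was searched on the transcribed strand for matches to the 2 seeds of miRNA-26b, in 7 bases (TACTTGA or ACTTGAA for 5p, AGAACAG or GAACAGA for 3p) or 8 bases (TACTTGAA, AGAACAGA). For the 5p arm, 1 of 9 genes held a match, *Angpt1*, at base 853 of its 2247-base UTR, and 18.3% of 21020 genes with an annotated UTR held one. For the 3p arm, 3 of 9 genes held a match (*Vegfa*, *Flt1* and *Kdr*), against 20.1% of all genes. *Kdr* held 2 overlapping 8-base matches at bases 814 and 819 of 1596, and 4.99% of genes held an 8-base match to this arm. Among genes with a UTR of like length, a 3p match was present in 27.1% for *Vegfa*, 52.8% for *Flt1* and 24.1% for *Kdr*, and a 5p match in 28.6% for *Angpt1*. *Tek*, *Flt4*, *Vegfb*, *Vegfc* and *Angpt2* held no match of these letters in this UTR. The matches, all on the minus strand of GRCm38 and in capitals within their flanks, lie at chr15:42426100-42426128 (*Angpt1*), chr5:75933591-75933620 (*Kdr*, the first of its pair), chr17:46018735-46018763 (*Vegfa*) and chr5:147638042-147638070 (*Flt1*).
Angpt1, match to the 5p seed: aatatgtggagTACTTGAgttggaacagc
Kdr, match to the 3p seed: gaagaattgtgAGAACAGAacagaaactca
Vegfa, match to the 3p seed: tcaccgttgacAGAACAGtccttaatcca
Flt1, match to the 3p seed: aaaaaaaaaaaAGAACAGcattaaaacta

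The libraries held between 25706728 and 33345037 counts, and levels are given in CPM, the counts scaled to a common library size (after TMM normalization). The *Mir26b* gene held 0 counts in KO1, KO2 and KO3 and 0, 20 and 0 counts in WT1 to WT3, too few to check the labels, since 0 counts allow up to 3. The labels name endothelial cells, but the summed level of 6 smooth muscle markers was 31130 to 42020 CPM (*Acta2*, *Myh11* and *Tagln* leading) and that of 6 adventitial fibroblast markers 4407 to 8045 CPM, against 522.4 to 1698 CPM for 10 pan-endothelial markers. Markers of the muscular and outer layers of the wall thus exceeded those of the named cell type in every library. The endothelial sum also set libraries apart. It was 522.4 CPM in KO1, 528.8 CPM in KO2 and 1698 CPM in KO3, against 1161, 1576 and 1445 CPM in WT1 to WT3. *Pecam1* and *Vwf* carried most of this split, with 288, 282 and 1320 CPM together in KO1 to KO3 and 878, 1230 and 1120 CPM in WT1 to WT3. The other 8 markers summed to 235, 247 and 378 CPM against 284, 343 and 330 CPM, so that KO1 and KO2 were still lowest and KO3 highest, by a smaller margin. KO3 further held the highest sums of macrophage markers (384.1 CPM, against 113.3 to 232.3 CPM in the other 5) and of fibroblast markers (8045 CPM, against 4407 to 5494 CPM). In bulk tissue, fewer cells of a type and less RNA per cell cannot be told apart.

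None of the 9 genes passed in the comparison of miRNA-26b-/- with miRNA-26b+/+ aortas. By edgeR's quasi-likelihood test, with p adjusted over every gene in the fit (Benjamini-Hochberg), 0 of 9 had an adjusted p under 0.05, where 0.00624% of the 16017 genes did. At an unadjusted p under 0.05 there was 1 of 9, *Tek*, against 6.47% of all genes, and DESeq2 gave 0 of 9 at either threshold. The 2 groups overlapped in 9 of 9 genes, and they did not overlap in 11.5% of all genes. Of the fold changes, 6 were below and 3 above wild type, with a median log2 fold change of -0.13 beside 0.01 over all genes tested. With 3 libraries a group the exact permutation test cannot give a p below 0.1. The p-values given here set the difference between the genotypes against the spread between these mice.

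**Figure D1:**
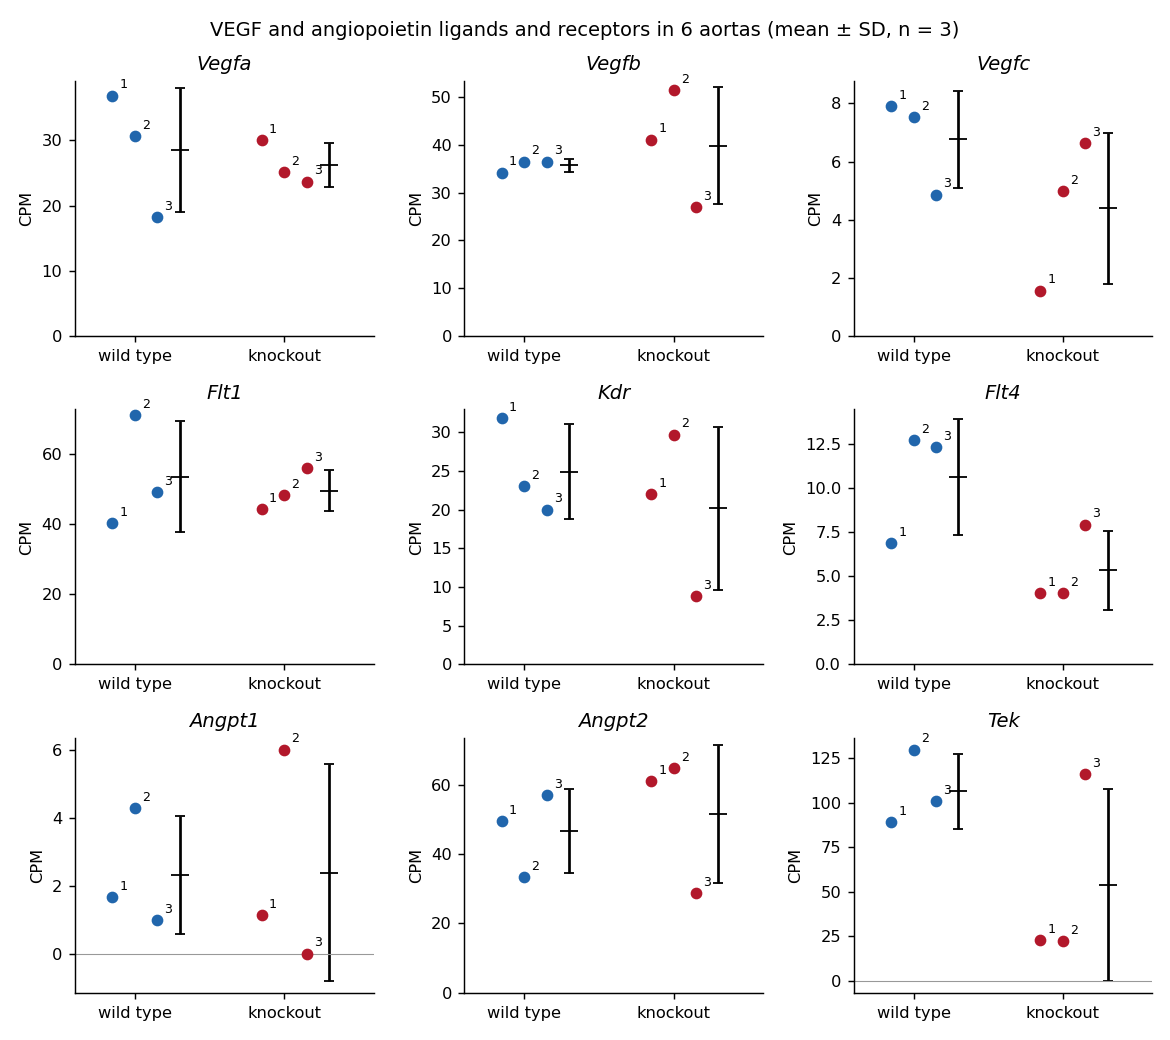
Level (CPM, linear axis from 0 or just below it) of each of the 9 genes in the 3 wild-type (blue) and 3 miRNA-26b-/- (red) libraries, numbered by replicate, with the group mean ± SD in black. The groups overlap in every panel, and *Tek* shows KO1 and KO2 at 22.8 and 22.1 CPM with KO3 at 116 CPM among the wild-type values.

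*Vegfa*, the main driver of vessel growth, was nearly level between the genotypes. Its level was 30.1, 25.1 and 23.7 CPM in KO1 to KO3 and 36.9, 30.7 and 18.2 CPM in WT1 to WT3, giving a log2 fold change of -0.13 (SE 0.281, 95% interval -0.75 to 0.49). The highest and the lowest values both belonged to wild-type mice, and the miRNA-26b-/- values lay between them. The interval leaves room for changes in either direction. The gene (chr17:46016993-46032369, minus strand) has 13 annotated transcripts, and the table counts them as 1 gene, so its splice forms were not separated.

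*Vegfb*, which binds FLT1 and is linked to fatty acid handling and coronary vessels, was tight in wild type and spread in miRNA-26b-/- mice. It measured 34.2, 36.5 and 36.5 CPM in wild type and 41.1, 51.4 and 27.0 CPM in miRNA-26b-/- mice, means of 35.8 ± 1.32 and 39.8 ± 12.2 CPM (SD, n = 3 each). The wild-type values all lay inside the miRNA-26b-/- range, with KO2 highest and KO3 lowest. The log2 fold change was 0.17 (SE 0.245, adjusted p = 0.95, edgeR quasi-likelihood). The summed level of 6 adipocyte markers, led by *Cfd*, was likewise highest in KO2 at 1794 CPM, with 863.7 CPM in KO1, 668.5 CPM in KO3 and 772, 1194 and 420.7 CPM in WT1 to WT3, and its part in the spread of *Vegfb* was not tested.

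*Vegfc*, the ligand of lymphatic growth, was a low-level gene at 1.56, 4.98 and 6.63 CPM in KO1 to KO3 and 7.90, 7.54 and 4.86 CPM in WT1 to WT3. KO1 alone lay clearly under the other libraries, with 40 counts against 147 to 242 elsewhere. The log2 fold change of -0.59 (SE 0.548, adjusted p = 0.914) moved to -0.24 without KO1.

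Among the VEGF receptors, *Flt1* kept to 1 range in both genotypes. It was at 44.3, 48.2 and 55.9 CPM in miRNA-26b-/- mice and at 40.2, 70.9 and 49.1 CPM in wild type, a log2 fold change of -0.10 (SE 0.228, interval -0.61 to 0.40). All 3 miRNA-26b-/- values fell inside the wild-type range. KO1 and KO2, the libraries with the lowest endothelial sum, were at 0.829 and 0.903 of the wild-type mean of this receptor. Of the other libraries only WT1 was lower.

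*Kdr*, the main signalling receptor for VEGF-A, behaved otherwise in the third animal. Its values were 22 CPM in KO1, 29.7 CPM in KO2 and 8.83 CPM in KO3, against 31.8, 23 and 20 CPM in wild type. KO3, which had the highest endothelial marker sum of the 6, had the lowest *Kdr*, with 249 counts against 564 to 995 in the others. The log2 fold change was -0.28 (SE 0.358, adjusted p = 0.939), and it was 0.07 without KO3.

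*Flt4*, the receptor of VEGF-C, was the second lowest of the 9 by unadjusted p. It stood at 4.03, 4.02 and 7.91 CPM in KO1 to KO3 and at 6.85, 12.7 and 12.3 CPM in WT1 to WT3, with group means of 5.32 ± 2.24 and 10.6 ± 3.27 CPM (SD, n = 3 each). KO3 lay above WT1, so the groups overlapped. The log2 fold change was -1.0 (SE 0.472, interval -2.04 to 0.04, unadjusted p = 0.0521 and adjusted p = 0.769 by edgeR's quasi-likelihood test), and it ran from -1.39 without KO3 to -0.80 without KO2. The 6 lymphatic endothelial markers, led by *Lyve1*, *Pdpn* and *Reln*, summed to 60.81, 72.32 and 103.5 CPM in KO1 to KO3 and to 66.42, 75.83 and 75.71 CPM in WT1 to WT3. KO3 was thus highest in both sum and receptor among the miRNA-26b-/- libraries, while WT2 and WT3 carried more *Flt4* at a lower sum. The list was not uniform. *Lyve1* led the sum of KO3, at 47.3 CPM, whereas *Prox1* held 3, 101 and 0 counts in KO1 to KO3 and 27, 70 and 55 counts in WT1 to WT3. *Reln* was higher in the miRNA-26b-/- libraries, at 11, 16.3 and 17.2 CPM against 6.85, 6.74 and 9.79 CPM. Groups did not overlap in 11.5% of all genes.

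*Angpt1*, the agonist of TEK, was a low-level gene, detected in every library but KO3. It held 29, 202 and 0 counts in KO1 to KO3 and 51, 118 and 30 counts in WT1 to WT3, that is 1.13, 6.02 and 0 CPM against 1.66, 4.30 and 0.993 CPM. The 0 in KO3 allows a level of up to 0.106 CPM. KO2 and WT2 were the highest of their groups, and the same 2 libraries held the highest sums of 5 cardiac muscle markers (279.4 and 317.9 CPM, against 104 to 126 CPM in the other 4) and of 5 brown adipocyte markers (401.2 and 276.2 CPM, against 82.63 to 189.5 CPM). KO2 and WT2 were also highest in the sums of 6 adipocyte markers (1794 and 1194 CPM, against 420.7 to 863.7 CPM). The same held for 5 sympathetic neuron markers (333.1 and 144.2 CPM, against 57.34 to 106.8 CPM). The part of these tissues in the *Angpt1* level was not tested. The fitted log2 fold change of 0.22 (SE 0.952) had an interval from -1.88 to 2.32 and turned to -1.78 with limma voom, so no direction can be given.

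*Angpt2*, the context-dependent antagonist, was far more abundant. It was at 60.9, 64.8 and 28.7 CPM in miRNA-26b-/- mice and at 49.5, 33.4 and 57.0 CPM in wild type. KO1 and KO2, with the lowest endothelial sums, were the highest of the 6 libraries in *Angpt2*, and KO3, with the highest sum, was the lowest. The log2 fold change was 0.14 (SE 0.283, adjusted p = 0.969), -0.08 without KO2 and 0.43 without KO3.

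*Tek* (chr4:94739289-94874976, plus strand), the angiopoietin receptor, had the widest split within a genotype among the 8 genes detected in all libraries. It was at 22.8 CPM in KO1, 22.1 CPM in KO2 and 116 CPM in KO3, and at 89.0, 130 and 101 CPM in WT1 to WT3. KO1 and KO2 lay far below the lowest wild-type value, whereas KO3 lay above 2 of the 3 wild-type mice. The highest miRNA-26b-/- value was 5.23 times the lowest, and in wild type this ratio was 1.46. The counts behind these levels were 583, 743 and 3267 in KO1 to KO3 and 2728 to 3557 in wild type, so counting error was small beside the spread between mice.

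The log2 fold change of *Tek* was -1.0 (SE 0.437, interval -1.96 to -0.03), with an unadjusted p = 0.0378 and an adjusted p = 0.745 by edgeR's quasi-likelihood test, and p = 0.3 by the two-sided exact permutation test. KO3 decided the value. Without KO3 the log2 fold change was -2.24 (SE 0.235, adjusted p = 0.000102), and in that fit 82 of 15654 genes (0.524%) passed. Without KO1 or KO2 it was -0.66 or -0.60, with adjusted p of 0.906 and 0.89. The unadjusted p was 0.215 with DESeq2 and 0.00256 with limma voom, and the adjusted p stayed at 0.743 or above in every alternative that kept all 6 libraries.

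The pattern of *Tek* was shared by several genes of the endothelium. By Pearson correlation of log2 CPM over the 6 libraries, among 11680 genes with a mean of at least 5 CPM, the genes most like *Tek* were *Vwf* (von Willebrand factor, r = 0.997), *Helb* (a DNA helicase, r = 0.996) and *Ptprb* (VE-PTP, the phosphatase that acts on TEK, r = 0.995). These are descriptions over 6 libraries that share the split of KO1 and KO2 from the other 4, and many genes were searched. *Vwf* stood at 103, 107 and 604 CPM in KO1 to KO3 and at 390, 602 and 522 CPM in WT1 to WT3. *Ptprb* stood at 90.3, 76.0 and 409 CPM against 298, 382 and 309 CPM. Both were low in KO1 and KO2 and in the range of wild type or above it in KO3, as was *Tek*.

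The ratio of *Tek* to *Vwf* within a library was nearly constant at 0.221, 0.207 and 0.192 in KO1 to KO3 and 0.229, 0.215 and 0.194 in WT1 to WT3. The ratios to single genes given here were chosen after the values were seen and were not tested. *Pecam1*, the adhesion molecule of endothelial junctions, was also low in KO1 and KO2, at 185, 175 and 716 CPM in miRNA-26b-/- mice and 488, 631 and 593 CPM in wild type, and the ratio of *Tek* to *Pecam1* was 0.123, 0.127 and 0.162 in KO1 to KO3 against 0.182, 0.205 and 0.17 in WT1 to WT3, lower in all 3 miRNA-26b-/- libraries. *Nos3*, the endothelial nitric oxide synthase, was at 23.6, 25.2 and 91.7 CPM and 60.8, 89.1 and 75.3 CPM. The rest of the 10 markers were mixed. *Emcn*, a sialomucin of the endothelial surface, was at 4.96, 5.16 and 18.7 CPM in KO1 to KO3 and at 10.3, 19.3 and 17.5 CPM in WT1 to WT3, and KO1 and KO2 were likewise the lowest of the 6 in *Cdh5* (46.2 and 76.3 CPM, against 85.7 to 120 CPM) and *Ecscr* (8.52 and 11.1 CPM, against 13.8 to 24.9 CPM). In *Erg*, *Esam*, *Cldn5*, *Egfl7* and *Robo4* they were not both below the other 4. *Erg*, an endothelial transcription factor, was at 75.4, 59.3 and 98.0 CPM in KO1 to KO3 and at 62.2, 67.2 and 79.5 CPM in WT1 to WT3, and *Esam* was at 42.4, 38.7 and 58.0 CPM against 45.7, 54.5 and 32.8 CPM. With edgeR, 0 of the 10 pan-endothelial markers had an unadjusted p under 0.05, beside 6.47% of all genes, with a median log2 fold change of -0.38. Without KO3, *Pecam1*, *Vwf*, *Cdh5*, *Emcn* and *Ecscr* had an unadjusted p under 0.05 in the same test, all lower, and the rest of the 10 did not. In that fit 10.8% of all genes did.

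**Figure D2:**
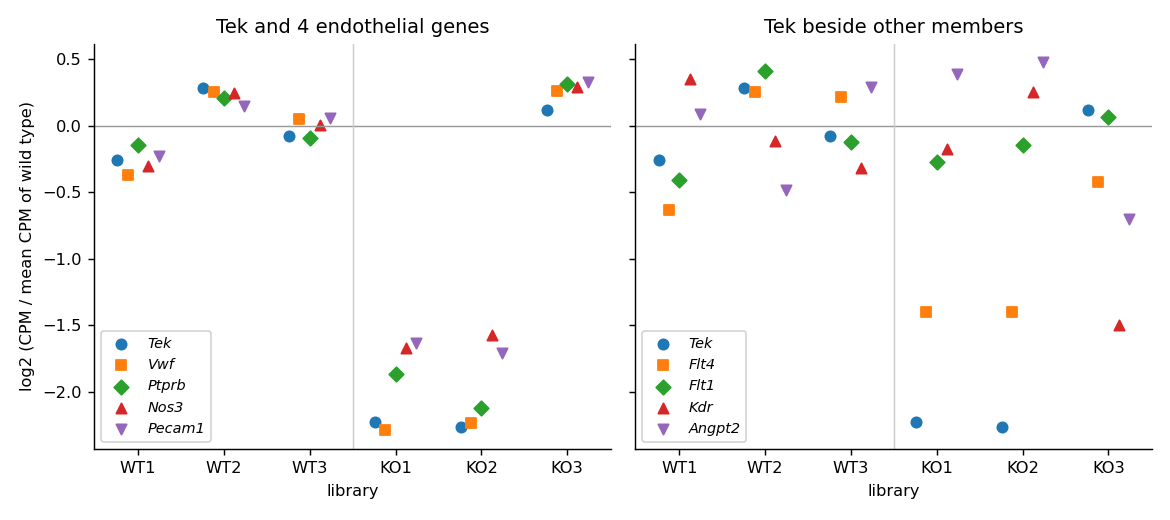
Level in each library relative to the wild-type mean (log2 of CPM over that mean, vertical axis) for *Tek* with 4 endothelial genes on the left and with 4 other genes of the VEGF and angiopoietin systems on the right. On the left KO1 and KO2 lie between -2.29 and -1.57 for all 5 genes and KO3 between 0.12 and 0.33, and on the right *Flt4* is at -1.40 in KO1 and KO2, *Flt1* stays within 0.41 of the wild-type mean and *Kdr* is at -1.50 in KO3.

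The receptors therefore did not move as 1 group. In KO1 *Tek* was at 0.214 of its wild-type mean and *Flt4* at 0.379, but *Flt1* at 0.829 and *Kdr* at 0.885. In KO2 the same fractions were 0.208, 0.379, 0.903 and 1.19. In KO3 they were 1.09, 0.744, 1.05 and 0.355, so that *Kdr* was the low receptor there.

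Each gene was next set against the endothelial marker sum, which holds none of the 9. Per 100 CPM of these markers, *Tek* was at 4.36, 4.19 and 6.82 CPM in KO1 to KO3 and at 7.67, 8.22 and 7 CPM in WT1 to WT3. All 3 miRNA-26b-/- values were below all 3 wild-type values, with means of 5.12 ± 1.47 and 7.63 ± 0.614 CPM (SD, n = 3 each) and p = 0.1 in the two-sided exact permutation test, the smallest it can give. The difference of -2.51 CPM per 100 ranged from -3.35 without KO3 to -2.04 without KO2. The exact permutation test gave p = 0.1 with *Pecam1* and *Cdh5* alone as the markers and p = 0.2 with the mean of log2 CPM of the 10. The other 8 genes overlapped between the groups on this scale. The share of all genes that would separate on such ratio scales was not computed, and on plain CPM 11.5% of all genes did not overlap. *Flt1* was at 8.48, 9.12 and 3.29 CPM per 100 in KO1 to KO3 and 3.46, 4.50 and 3.40 in WT1 to WT3, and *Angpt2* at 11.7, 12.3 and 1.69 against 4.26, 2.12 and 3.95. KO1 and KO2 stood above wild type in both genes on this scale and KO3 below it, but for *Flt1* this rested on *Pecam1* and *Vwf* in the sum. Per 100 CPM of the other 8 markers, an alternative chosen after seeing the data, *Flt1* was at 18.9, 19.5 and 14.8 CPM in KO1 to KO3 and 14.2, 20.7 and 14.9 CPM in WT1 to WT3. On that scale *Tek* was at 9.71, 8.96 and 30.7 CPM against 31.4, 37.8 and 30.6 CPM, so its groups overlapped (p = 0.2, two-sided exact permutation test), and *Flt4*, at 1.72, 1.63 and 2.09 CPM against 2.42, 3.7 and 3.74 CPM, did not overlap (p = 0.1, the same exact test).

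**Figure D3:**
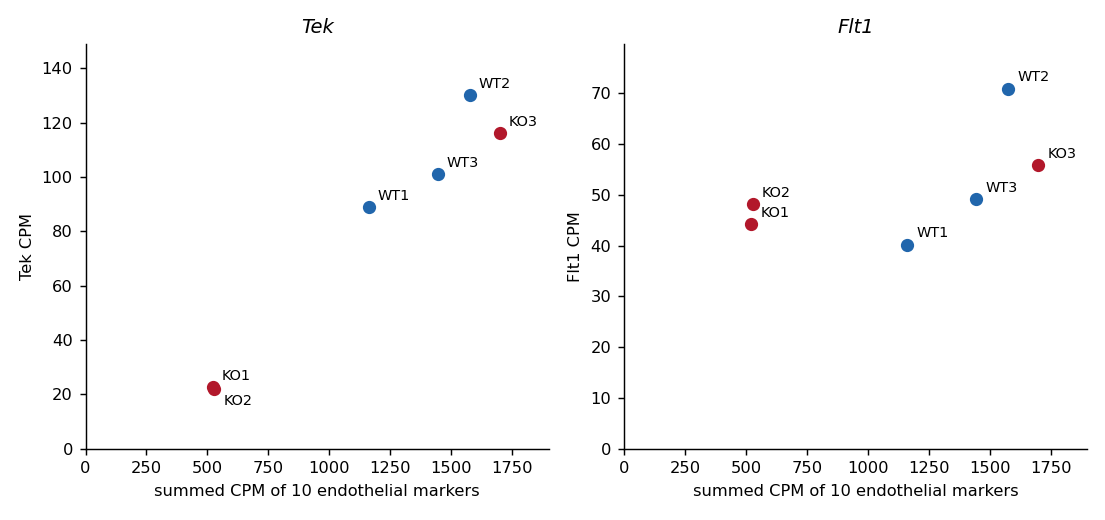
Level of *Tek* (left) and *Flt1* (right) in CPM against the summed CPM of 10 pan-endothelial markers in the same library, with miRNA-26b-/- libraries in red and wild type in blue, both axes linear from 0. *Tek* is low in KO1 and KO2, where the marker sum is 522.4 and 528.8 CPM, whereas *Flt1* in these libraries (44.3 and 48.2 CPM) is within the wild-type range.

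The balance within each system also overlapped between genotypes. The ratio of *Angpt2* to *Angpt1*, with 0.5 CPM added to both, was 37.6, 10 and 58.4 in KO1 to KO3 and 23.1, 7.06 and 38.6 in WT1 to WT3 (p = 0.6, two-sided exact permutation test on log2 ratios). *Angpt2* exceeded *Angpt1* in 6 of 6 libraries. The ratio of *Flt1* to *Kdr*, the trap receptor over the signalling receptor, was 2.01, 1.63 and 6.33 in KO1 to KO3 and 1.26, 3.09 and 2.46 in WT1 to WT3 (p = 0.7, same exact permutation test). KO3 had the highest of the 6 ratios, and without it the mean log2 difference between the genotypes turned from 0.37 to -0.23.

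**Figure D4:**
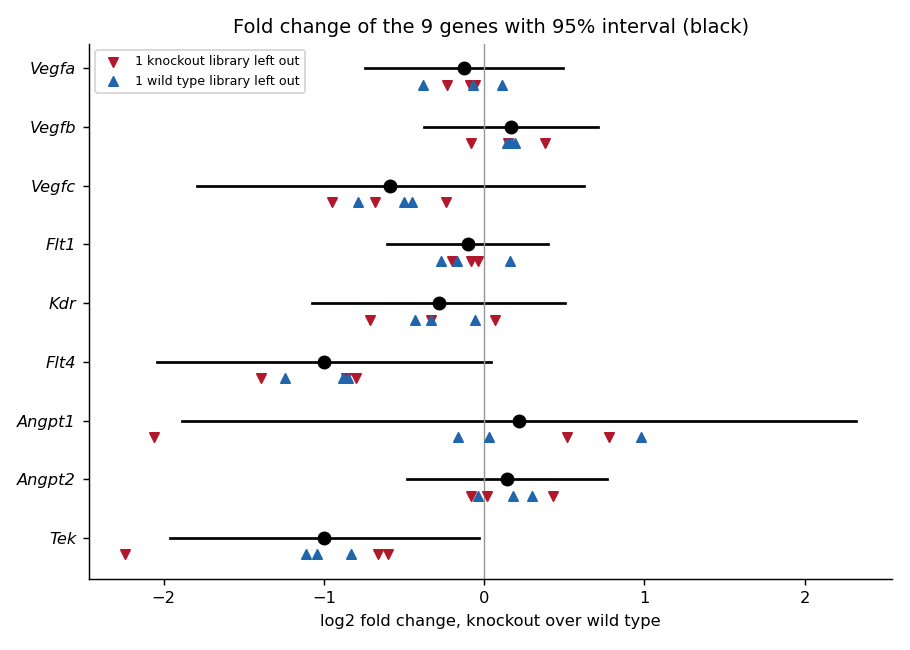
Log2 fold change of miRNA-26b-/- over wild type for the 9 genes (black point) with its 95% interval (black line), and below each line the fold change with 1 miRNA-26b-/- library (red) or 1 wild-type library (blue) left out. *Tek* is at -1.0 and moves to -2.24 without KO3, and the intervals of the other 8 genes include 0.

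To compare levels between genes, CPM were divided by the merged exon length in kb. The order of the mean over 6 libraries was *Vegfb* (23.6 ± 5.05 CPM per kb, SD, n = 6), *Tek* (17 ± 9.91), *Angpt2* (13.3 ± 4.04), *Vegfa* (6.40 ± 1.52), *Flt1* (3.81 ± 0.807), *Kdr* (2.5 ± 0.902), *Vegfc* (2.28 ± 0.955), *Flt4* (0.968 ± 0.466) and *Angpt1* (0.452 ± 0.443). The ranges of every pair of neighbours overlapped, and *Angpt2* was above *Vegfa*, *Vegfa* above *Flt1* and *Vegfc* above *Flt4* in 6 of 6 libraries. The place of *Tek* depended on the library, since it was at 4.84 and 4.70 CPM per kb in KO1 and KO2 and at 18.9 to 27.5 CPM per kb in the other 4. *Vegfb* made up 64.3% to 80.2% of the summed per-kb level of the 3 VEGF ligands, *Vegfa* 14.6% to 26% and *Vegfc* 1.92% to 10.8%. Lengths taken from the longest transcript gave the same order, but *Flt1* then rose to 7.46 CPM per kb and *Vegfa*, at 7.95, was above it in 3 of 6 libraries.

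**Figure D5:**
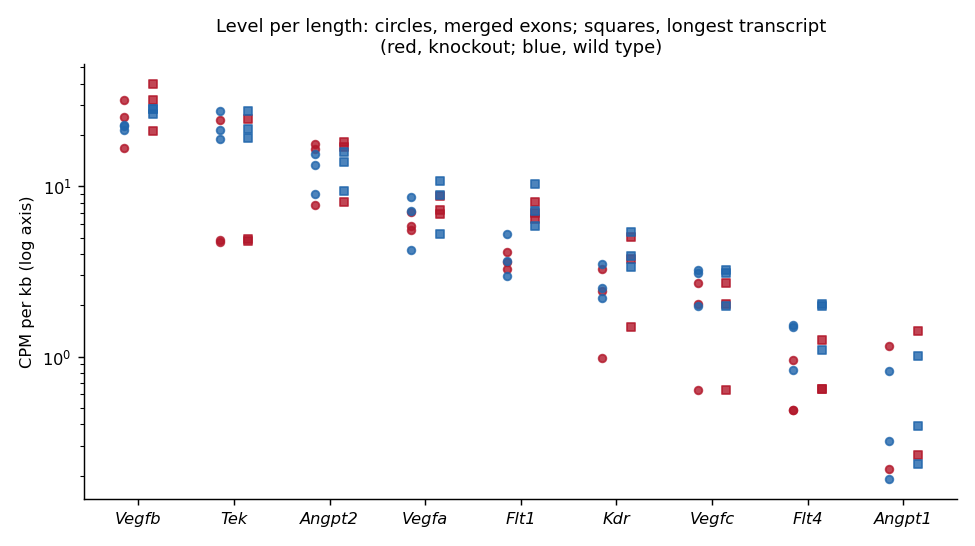
Level per length (CPM per kb, log axis) of the 9 genes in every library, with length from merged exons (circles) or from the longest transcript (squares) and with miRNA-26b-/- in red and wild type in blue. The genes run from *Vegfb* at 16.8 to 32 CPM per kb to *Angpt1* at 1.16 or less on merged exons, the 0 of KO3 in *Angpt1* is not drawn, and *Tek* shows 2 low red points.

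Of the 9 further ligands, co-receptors and partner genes of the family, 1 had an unadjusted p under 0.05, against 6.47% of all genes, and 0 an adjusted p under 0.05 (0.00624%). It was *Vegfd*, a second ligand of FLT4. *Vegfd* was at 34.8, 35.9 and 33.1 CPM in KO1 to KO3 and at 42.6, 61.2 and 47.1 CPM in WT1 to WT3, a log2 fold change of -0.53 (SE 0.214, unadjusted p = 0.0252, adjusted p = 0.736). All miRNA-26b-/- values were below all wild-type values, as in no other gene of the 9, where groups did not overlap in 11.5% of all genes. *Tie1*, the orphan receptor that pairs with TEK, was at 27.7, 30.9 and 80.0 CPM against 55.4, 88.4 and 46.2 CPM, with KO1 and KO2 again the lowest. The median log2 fold change of the list was -0.19. The list held *Cdh5*, also 1 of the 10 pan-endothelial markers, and *Ptprb*, 1 of the genes most like *Tek*. Its count without KO3 therefore partly repeats the endothelial split. Without KO3, 7 of 9 had an unadjusted p under 0.05, all lower (*Vegfd*, *Angpt4*, *Tie1*, *Nrp1*, *Ptprb*, *Svep1* and *Cdh5*), against 10.8% of all genes in that fit, and *Ptprb* (adjusted p = 2.35e-05) and *Svep1* (adjusted p = 0.0191) passed after adjustment.

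Downstream of the VEGF receptors, 1 of 33 genes tested had an unadjusted p under 0.05, beside 6.47% of all genes, and 0 passed after adjustment (median log2 fold change -0.02). This was *Hspb1*, a small heat shock protein phosphorylated on the p38 branch, at 171, 147 and 177 CPM in miRNA-26b-/- mice and 289, 335 and 319 CPM in wild type (log2 fold change -0.93, SE 0.143, adjusted p = 0.0822). All 3 miRNA-26b-/- libraries were below wild type, KO3 included, unlike the split of *Tek*. Groups did not overlap in 2 of the 33, *Hspb1* and *Shc1* (higher), against 11.5% of all genes. The kinase *Src* was at a log2 fold change of 0.27 (SE 0.186, unadjusted p = 0.171). In the TEK branch 1 of 13 had an unadjusted p under 0.05 (6.47% of all genes) and 0 passed after adjustment (median 0.03). It was the integrin chain *Itgb1*, at 2360, 2140 and 2160 CPM against 2650, 2740 and 2820 CPM (log2 fold change -0.30, SE 0.114, adjusted p = 0.736).

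Of 16 genes tested of the oxygen-sensing pathway that controls *Vegfa*, 1 had an unadjusted p under 0.05, a share near the 6.47% of all genes, 0 passed after adjustment, and the median log2 fold change was 0.00. *Epas1*, the HIF-2α subunit of endothelium, was at 233, 210 and 301 CPM in KO1 to KO3 and 317, 386 and 320 CPM in WT1 to WT3 (log2 fold change -0.46, SE 0.159, adjusted p = 0.736). Its groups did not overlap, and KO3 was the closest to wild type. The groups of 3 of the 16 did not overlap, against 11.5% of all genes: *Epas1* and *Hif1an*, both lower, and *Vhl*, higher. Of 10 genes induced by VEGF or marking sprouting endothelium, 0 had an unadjusted p under 0.05 with edgeR, beside 6.47% of all genes, and 0 with DESeq2. Their median log2 fold change was -0.21. The smallest unadjusted p with edgeR was that of *Aplnr*, the apelin receptor, at 2.62, 9.54 and 2.84 CPM against 0.816, 2.99 and 1.82 CPM (unadjusted p = 0.0624). *Apln*, its ligand, was at 1.6, 0.865 and 1.63 CPM against 0.685, 0 and 0 CPM (unadjusted p = 0.0994), a level of few counts.

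Of 14 transcription factors that act on endothelial receptor genes, 2 had an unadjusted p under 0.05, both lower, beside 6.47% of all genes in either direction, and 0 passed after adjustment (median log2 fold change -0.18). *Sox18*, a SOX factor of vascular and lymphatic development, was at 6.33, 12.5 and 25.2 CPM in KO1 to KO3 and at 27.4, 42.4 and 40.6 CPM in WT1 to WT3 (log2 fold change -1.31, SE 0.36, adjusted p = 0.731). *Tal1*, a factor of blood and endothelial specification, was at 4.61, 1.28 and 4.11 CPM against 7.80, 12.3 and 9.86 CPM (log2 fold change -1.64, SE 0.533, adjusted p = 0.736). In both genes all miRNA-26b-/- values were below all wild-type values. These 2 were the only genes of the 14 whose groups did not overlap, where 11.5% of all genes did not. *Gata2* was at 3.01, 8.70 and 16.7 CPM against 17.4, 18.8 and 16.4 CPM (unadjusted p = 0.0595), with KO3 in the wild-type range.

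The genes most like the other 8 by the same correlation were of mixed kinds. For *Angpt1* they included *Myl4*, an atrial myosin light chain (r = 0.987), beside *Mapt* (0.99) and *Blcap* (0.988). For *Flt1* they were *Dpep1* (0.981), *Itprip* (0.981) and *Nfkbiz* (0.976), for *Kdr* *Dram2* (0.996), *Gm28221* (0.991) and *Prcc* (0.986), and for *Flt4* *Ndufaf2* (0.991), *Golgb1* (0.99) and *Golim4* (0.99). For *Vegfa* they were *Inhba* (0.989), *Zfp708* (0.985) and *Wrb* (0.98), for *Vegfb* *Pold3* (0.996), *Sdr39u1* (0.992) and *Adra1d* (0.985), for *Vegfc* *Arcn1* (0.99), *Ebf2* (0.985) and *Ifi207* (0.984), and for *Angpt2* *Smyd2* (0.989), *Calm2* (0.989) and *Zswim9* (0.987). No pan-endothelial marker was among these top 3, in contrast to *Vwf* for *Tek*, but markers came close below that cut. *Flt4* was at 0.962 with *Ecscr*, 0.941 with *Emcn*, 0.915 with *Vwf* and 0.891 with *Pecam1*. It was at only 0.29 with *Erg*, 0.153 with *Esam* and -0.177 with *Robo4*. *Vegfc* was at 0.92 with *Cdh5*. Of the other members, *Flt4* was most like *Tek* (r = 0.91), followed by *Vegfc* (0.731) and *Flt1* (0.486), whereas *Kdr* was at -0.401, *Angpt2* at -0.749 and *Vegfb* at -0.788.

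Other cell types of the vessel also varied between the libraries. The 5 skeletal muscle markers summed to 26.38, 83.29 and 8.404 CPM in KO1 to KO3 against 6.495, 11.22 and 2.184 CPM in WT1 to WT3, with 4 of 5 higher at an unadjusted p under 0.05, where 6.47% of all genes were called in either direction. These were low levels. *Myh4* held 115, 650 and 0 counts in KO1 to KO3 and 0 in all wild-type libraries. *Acta1* was at 0.319 CPM in KO3, below the 0.656 to 3.26 CPM of wild type. Groups did not overlap in 2 of the 5, against 11.5% of all genes. The 5 sympathetic neuron markers summed to 91.52, 333.1 and 57.34 CPM against 93.84, 144.2 and 106.8 CPM. Of these 2 were called higher, *Th* and *Tubb3*, on the counts of KO2 (*Th* 0, 1244 and 0, *Tubb3* 14, 1676 and 44 in KO1 to KO3), and the sums of KO1 and KO3 were below all 3 of wild type. Pericyte markers, led by *Rgs5*, were at 2857 to 3421 CPM in miRNA-26b-/- mice and 3402 to 3756 CPM in wild type, and 5 erythroid markers at 85.68 to 930.4 CPM and 354.5 to 633.6 CPM. Their part in the values of the 9 genes was not tested.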

How the data were processed

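RNA-seq of 6 mouse aortas was analysed from the deposited table of raw counts per gene. The authors aligned reads to GRCm38 (mm10) with STAR and made the counts with featureCounts 1.6.4 (Subread). The file header names GENCODE M21, and the methods name another release. Per the file headers, counting ignored strand, allowed a read to count for overlapping genes and left out reads with several alignments. A deposited table of normalized values and the authors' own comparisons were not used. No member shared exons with a counted gene except *Angpt1* with *Gm17473*, which held 0 counts.

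Groups came from the genotype labels, and no batch or pairing is given. Genes with a count sum of at least 2 and over 1 CPM in at least 2 libraries were scaled by TMM and fitted together with edgeR 4.0.16 (glmQLFit, glmQLFTest, R 4.3.3), with adjustment over all genes tested. Limma 3.58.1 (voom), DESeq2 1.42.0, other scalings and filters, and fits without each library were alternatives. Single values were compared by a two-sided exact permutation test. The fit was tested on simulated data with 200 changed genes, none of them with low counts. Each gene was drawn on its own, so the shared split of KO1 and KO2 from KO3 was not part of that test.

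Named were the 9 members, from each pathway list the genes with an unadjusted p under 0.05 and otherwise up to 3 with the smallest, from marker lists up to 3 of the most abundant, and for each member its 3 most correlated genes (log2 CPM with a prior count of 2). *Emcn*, *Ecscr*, *Erg*, *Esam*, *Cldn5*, *Egfl7*, *Robo4*, *Th*, *Tubb3* and the family genes called without KO3 were added after their values were seen. So were *Prox1*, *Shc1*, *Vhl* and *Hif1an*. The members and lists were chosen with earlier results of these data known. 1 marker list is not reported here.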

Additional observations from a re-analysis of the deposited data

How the results depend on the processing

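No paired analysis was possible because the labels give no shared replicate numbers. When single libraries were left out, the log2 fold change ran from -0.38 to 0.11 for *Vegfa*, -0.08 to 0.38 for *Vegfb*, -0.95 to -0.24 for *Vegfc*, -0.27 to 0.16 for *Flt1*, -0.71 to 0.07 for *Kdr*, -1.39 to -0.8 for *Flt4*, -2.06 to 0.98 for *Angpt1*, -0.08 to 0.43 for *Angpt2* and -2.24 to -0.60 for *Tek*. So 6 of the 9 genes changed direction with the choice of library, and *Vegfc*, *Flt4* and *Tek* did not. Signs turned for *Vegfa* without WT1 (0.11), *Vegfb* without KO2 (-0.08), *Flt1* without WT2 (0.16), *Kdr* without KO3 (0.07), *Angpt1* without KO2 (-2.06) or WT3 (-0.16) and *Angpt2* without KO2 (-0.08) or WT2 (-0.04). With all libraries, the only turn was that of *Angpt1* with limma voom (-1.78), and its cause was not tested.

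The number of the 9 genes with an unadjusted p under 0.05 was 1, and it was 0 with DESeq2, the likelihood ratio test, robust shrinkage, the earlier quasi-likelihood method or no filter. It ran from 0 to 2 with a library left out, with *Flt4* joining *Tek* without KO3, and from 0 to 1 after adjustment. These highest counts came without KO3, where 10.8% of all genes had an unadjusted p under 0.05 and 0.524% passed after adjustment. With all 6 libraries these shares were 6.47% and 0.00624%. The pathway counts ran from 0 to 7 for the family, 1 to 3 downstream of VEGF receptors and 0 to 3 for TEK. They ran from 0 to 1 for oxygen sensing, 0 to 2 for sprouting and 2 to 4 for transcription factors. With all libraries these lists held 9, 33, 13, 16, 10 and 14 genes tested, in that order. All but the oxygen-sensing list peaked without KO3, in the fit where 10.8% of all genes were called. *Tie1* and *Ptprb*, on both the family and the TEK list, were among those called there. Voom gave 2 for each of the first 3 lists. Without KO3 more genes passed in all, 82 against 1.

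Per 100 CPM of endothelial markers, the differences ran from 0.95 to 3.13 CPM for *Vegfa*, 2.13 to 6.2 for *Vegfb*, -0.15 to 0.17 for *Vegfc* (-0.036 without WT3), 2.10 to 5.01 for *Flt1*, 0.51 to 3.06 for *Kdr*, -0.16 to 0.016 for *Flt4*, -0.053 to 0.52 for *Angpt1*, 3.23 to 8.52 for *Angpt2* and -3.35 to -2.04 for *Tek*. With the mean of log2 CPM of the markers, *Vegfc* turned to -2.37, on another scale. The log2 ratio differed by -0.091 to 1.34 for *Angpt2* to *Angpt1* and by -0.23 to 0.75 for *Flt1* to *Kdr* (-0.0074 without WT1). With the 8 markers other than *Pecam1* and *Vwf*, *Kdr* turned to -0.069 and *Vegfc* to -0.67 CPM. This marker set and the length scale were chosen after seeing the data. *Angpt1*, at 0 to 202 counts, had the lowest mean level of the 9 genes.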
